A study of Mus musculus with 40 samples.

Results

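The genes of polyamine synthesis and breakdown were followed in mouse peripheral blood as 10 members, taken by gene symbol from a deposited table of 54532 genes: the synthesis enzymes Odc1, Amd1, Srm and Sms, the breakdown enzymes Sat1, Smox and Paox, and the regulators Oaz1, Oaz2 and Azin1. All 10 were in the table. It held 40 libraries of poly-T selected whole blood RNA, 1 per mouse, from female mice 7 weeks old that were Ifnar1+/+ or were labelled Ifnar1-/- (Ifnar1 encodes a subunit of the type I interferon receptor). The labelled Ifnar1-/- mice were 3 uninduced mice, 5 given PBS and bled on day 4 after pristane, and 5 given PBS and bled on day 6. The Ifnar1+/+ mice were 3 uninduced mice, 6 given spermine and 6 given PBS and bled on day 4, and 6 given spermine and 6 given PBS and bled on day 6. Spermine or PBS was given for 3 days before pristane, a hydrocarbon oil used to induce lupus-like disease. Spermine is itself the end product of the pathway followed here. The labels give no pretreatment for the uninduced mice, so pristane and PBS cannot be told apart in any comparison with them. No labelled Ifnar1-/- mouse received spermine.

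Polyamine synthesis starts with ornithine decarboxylase, the product of Odc1, which makes putrescine. The product of Amd1 supplies the aminopropyl groups that the products of Srm and Sms add to make spermidine and then spermine. Spermine is turned back into spermidine by spermine oxidase (Smox), or is acetylated by the product of Sat1 and then oxidised by the product of Paox. Antizymes (Oaz1, Oaz2) bind ornithine decarboxylase and direct it to the proteasome, while the antizyme inhibitor encoded by Azin1 binds antizyme and frees the enzyme. Polyamines feed back on this loop, because the antizyme reading frame is interrupted by a stop codon that ribosomes pass by a +1 frameshift more often when polyamines are abundant. Transcript levels do not report that translational step.

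The frameshift windows of both antizymes are shown because they are the site where polyamine level and the pathway meet. They were read on the plus strand of GRCm38 from GENCODE transcripts, at chr10:80828266-80828325 for Oaz1 (coding exon 2, 68 codons before the stop) and chr9:65686243-65686302 for Oaz2 (coding exon 2, 32 codons before the stop). Capitals mark the last codon before the stop, the TGA stop and the base after it.
Oaz1: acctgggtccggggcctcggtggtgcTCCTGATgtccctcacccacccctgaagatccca
Oaz2: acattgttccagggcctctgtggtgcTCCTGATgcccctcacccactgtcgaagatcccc
Both windows were identical at 49 of 60 bases, the capital bases included.

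Promoter windows are shown for Smox, Oaz1 and Odc1, members whose levels moved together across libraries. Each is the 250 bases before the RefSeq start on the plus strand (GRCm38.p6), at chr2:131491612-131491861 for Smox, chr10:80826406-80826655 for Oaz1 and chr12:17544623-17544872 for Odc1. In the deposited annotation Smox starts at 131491496 and Odc1 at 17544794. The Smox window thus lies wholly inside the annotated gene and the Odc1 window partly. Capitals mark GGGCGG or its reverse complement CCGCCC, the core of the GC box.
Smox: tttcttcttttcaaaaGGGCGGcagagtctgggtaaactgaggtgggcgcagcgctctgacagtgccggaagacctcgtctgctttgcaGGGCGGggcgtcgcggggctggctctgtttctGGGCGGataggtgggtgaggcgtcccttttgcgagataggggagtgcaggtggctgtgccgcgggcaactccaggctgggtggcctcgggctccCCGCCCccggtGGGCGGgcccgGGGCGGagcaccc
Oaz1: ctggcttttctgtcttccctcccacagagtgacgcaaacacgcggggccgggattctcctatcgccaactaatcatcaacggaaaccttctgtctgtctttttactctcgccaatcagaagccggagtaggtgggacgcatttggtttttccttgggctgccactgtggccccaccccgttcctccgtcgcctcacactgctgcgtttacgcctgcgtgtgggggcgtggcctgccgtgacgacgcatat
Odc1: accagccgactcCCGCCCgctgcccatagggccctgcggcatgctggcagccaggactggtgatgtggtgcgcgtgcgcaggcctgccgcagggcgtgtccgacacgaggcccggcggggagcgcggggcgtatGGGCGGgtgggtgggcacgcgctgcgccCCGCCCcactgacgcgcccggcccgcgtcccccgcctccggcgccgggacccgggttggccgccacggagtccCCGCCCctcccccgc
RefSeq promoter entries were matched for 8 of the 10 members, all but Srm and Azin1. These 8 have 10 windows, as Paox and Sms have more than 1. Members are counted by gene below and all windows singly, so the counts and shares are not on an equal footing. GGGCGG was found on either strand in at least 1 window of 7 of the 8 and in 32.7% of all 32851 windows, with 6 matches in Smox, 4 in Odc1 and none in Oaz1. TATAAA, 1 form of the TATA box, was found in none of the 8, against 12.4% of all windows. Other forms of that box were not searched, and the Amd1 window, not printed, holds TATATAAG. AGATAA, 1 form of the core bound by GATA factors, was found in none of the 8, against 10.0% of all windows. Other forms of that core were not searched. The Smox window holds AGATAG, and the Oaz2 window, not printed, holds TGATAG. A lack of GATA sites in these members is thus not shown. CACGTG, an E-box bound by Myc, was found in 1 member, Sms, in only 1 of its windows, against 6.0% of all windows. These 4 motifs were searched on both strands, and of the 4 only GGGCGG occurs in the windows printed.

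Each library held 9156431 to 14058050 fragments assigned to genes, of which hemoglobin transcripts took 26.5% to 62.2%. Ifnar1 itself was higher in the 13 labelled Ifnar1-/- libraries (13.7 to 23.9 FPKM, fragments per kilobase of gene and per unit of library size) than in the 27 Ifnar1+/+ libraries (5.85 to 10.3 FPKM), without overlap. A value over the whole gene does not check a deletion of part of it, so the genotype is called by its label throughout. Mitochondrial transcripts took under 1.2% of the fragments other than hemoglobin in 7 libraries, all Ifnar1+/+: uninduced mouse 3, PBS day 4 mice 1, 3 and 4, PBS day 6 mice 4 and 6, and spermine day 6 mouse 2. Other than spermine day 6 mouse 2, these had the highest levels in their groups of Alas2, the erythroid enzyme of heme synthesis used here as the red-cell measure. The members' correlations, and their calls in comparisons that hold any of these 7, are also given without them.

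Antizyme 1 was the most abundant member and Paox the scarcest. Over the 40 libraries the median level was 1057 FPKM for Oaz1, 92.00 for Smox, 74.5 for Odc1, 37.5 for Azin1, 34.9 for Sat1, 20.7 for Oaz2, 7.62 for Amd1, 4.10 for Srm, 2.00 for Sms and 0.422 for Paox. Oaz1 exceeded Smox in 40 of 40 libraries, Oaz2 exceeded Amd1 in 40, Srm exceeded Sms in 40, Sms exceeded Paox in 40 and Amd1 exceeded Srm in 39. The middle of the order was less fixed: Smox exceeded Odc1 in 33 of 40 libraries, Odc1 exceeded Azin1 in 35, Azin1 exceeded Sat1 in 26 and Sat1 exceeded Oaz2 in 33. Paox rested on 5 to 82 reads a library and never reached 1 FPKM, so it did not pass the filter of 1 FPKM in at least 3 libraries and was not tested. Srm rested on 25 to 188 reads, Sms on 42 to 361 and Oaz1 on 16210 to 38979. Amd1 has a near-identical copy, Amd2, and reads shared by the pair could be split between them, so its level is uncertain.

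**Figure D1:**
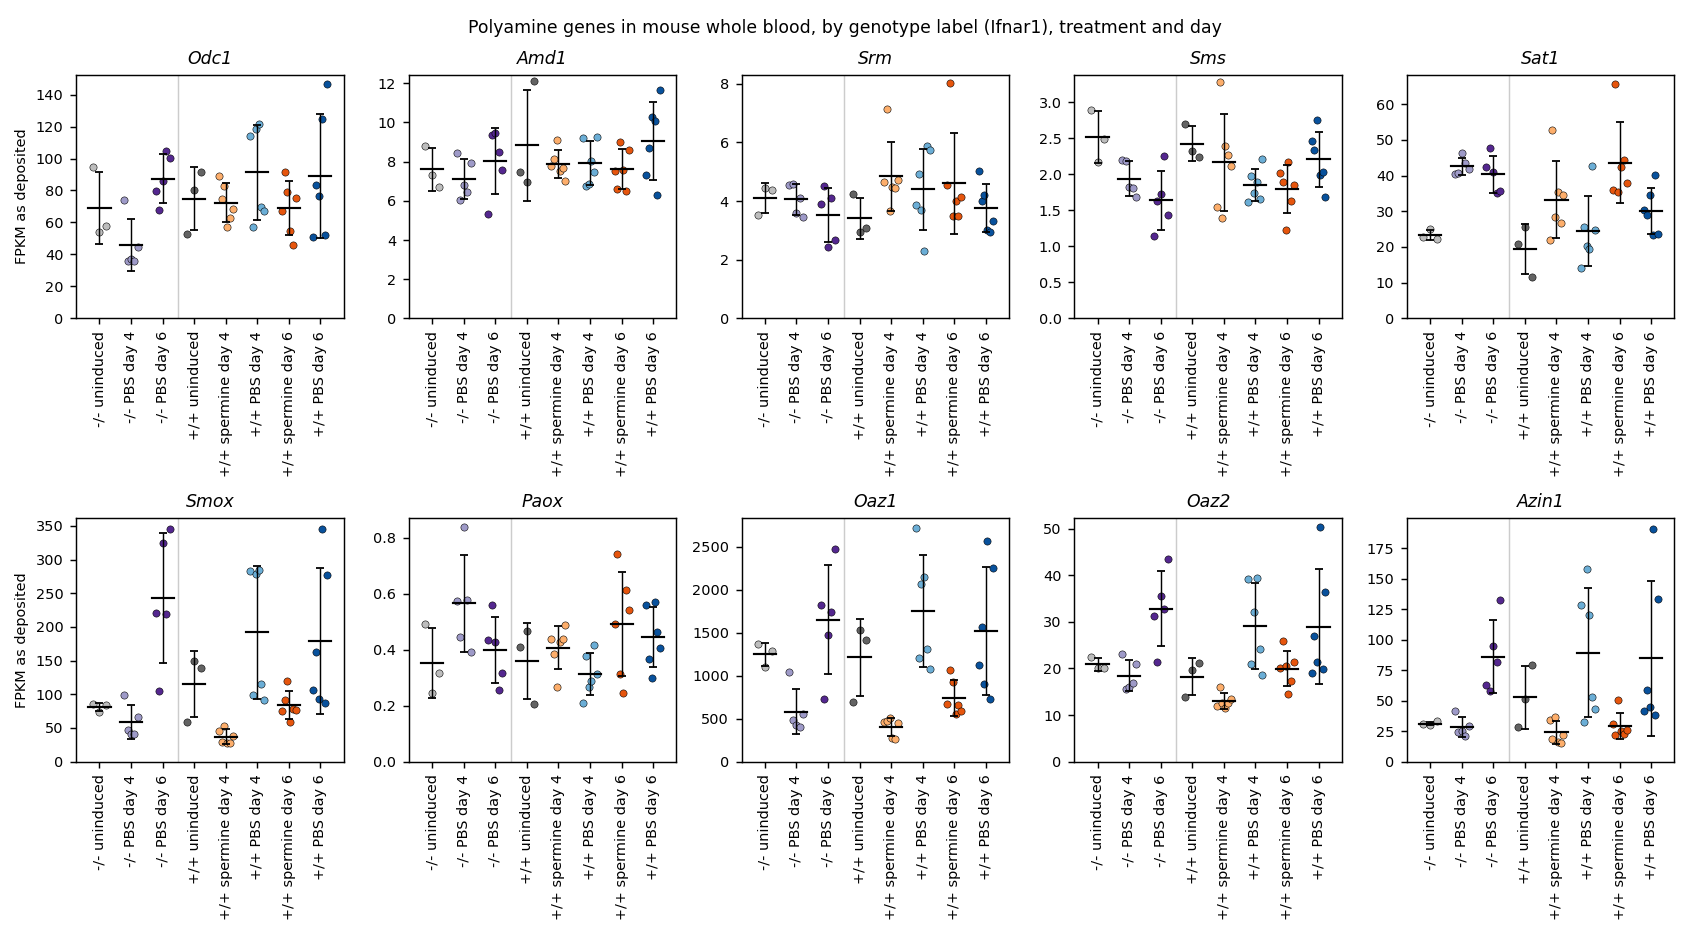
Level of each member (FPKM, linear axis from 0) in every library of the 8 groups; points are mice, horizontal bars are group means and error bars are SD. Oaz1 ran from 258 to 2712 FPKM and Smox from 28.2 to 346 FPKM, whereas Amd1 stayed between 5.34 and 12.1 FPKM.

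In GRCm38 the members that the comparisons turn on are Smox (ENSMUSG00000027333, chr2:131491496-131525922, plus strand), Azin1 (ENSMUSG00000037458, chr15:38487427-38519266, minus strand), Oaz1 (ENSMUSG00000035242, chr10:80826656-80829290, plus strand), Oaz2 (ENSMUSG00000040652, chr9:65668001-65690300, plus strand), Odc1 (ENSMUSG00000011179, chr12:17544794-17551505, plus strand) and Sat1 (ENSMUSG00000025283, chrX:155213132-155216449, minus strand). The spread between mice differed by member. Azin1 and Smox each spanned 12.3-fold between the lowest and the highest library, and Oaz1 spanned 10.5-fold. Sat1 spanned 5.61-fold, Oaz2 4.39-fold, Paox 4.09-fold, Odc1 4.06-fold and Srm 3.51-fold. Sms and Amd1 were the steadiest, at 2.85-fold and 2.27-fold.

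Among mice of the same group, 5 members followed the red-cell transcript Alas2. With group means removed, the Pearson correlation over 40 libraries between log2 level and log2 Alas2 was 0.94 for Smox, 0.92 for Azin1, 0.88 for Oaz1, 0.79 for Odc1 and 0.75 for Oaz2. The Spearman values were 0.94 for Smox, 0.92 for Azin1, 0.86 for Oaz1, 0.78 for Odc1 and 0.73 for Oaz2. Each of these values had a permutation p of 1e-05 (100000 resamples within groups, two-sided, the smallest they can give), or 5e-05 after Benjamini-Hochberg adjustment over 30 relations. Without the 2 libraries farthest from the median in Alas2 the Pearson values were 0.93 for Smox, 0.92 for Azin1, 0.85 for Oaz1, 0.75 for Odc1 and 0.71 for Oaz2. Per doubling of Alas2, the fitted log2 level moved by 0.98 ± 0.07 for Azin1, 0.94 ± 0.06 for Smox, 0.77 ± 0.07 for Oaz1, 0.54 ± 0.07 for Odc1 and 0.43 ± 0.07 for Oaz2 (slope ± SE). On the deposited scaling Smox and Azin1 thus moved in near proportion to Alas2, Oaz1 somewhat less, and Odc1 and Oaz2 least of the 5. The members and Alas2 share each library's scaling, and slopes on equal library sums are not given. In whole blood, fewer cells of a type and less RNA per cell cannot be told apart.

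Inside the single groups of 6 mice, Smox correlated with Alas2 at 0.86 to 1.00 and Azin1 at 0.92 to 0.98. Oaz1 ranged over 0.54 to 1.00, Odc1 over 0.32 to 0.94 and Oaz2 over -0.37 to 0.97, so Oaz2 did not follow Alas2 in every group. Over the 33 libraries left without the 7 low-mitochondrial libraries, the correlations were 0.91 for Smox, 0.89 for Azin1, 0.85 for Oaz1, 0.68 for Odc1 and 0.56 for Oaz2. These 5 remained past the threshold there. On equal library sums without hemoglobin the correlations over 40 libraries were 0.88 for Smox, 0.84 for Azin1, 0.74 for Oaz1, 0.48 for Odc1 and 0.27 for Oaz2. That of Oaz2 was then not past the threshold (adjusted permutation p = 0.149; Spearman rho = 0.37, adjusted permutation p = 0.0489).

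**Figure D2:**
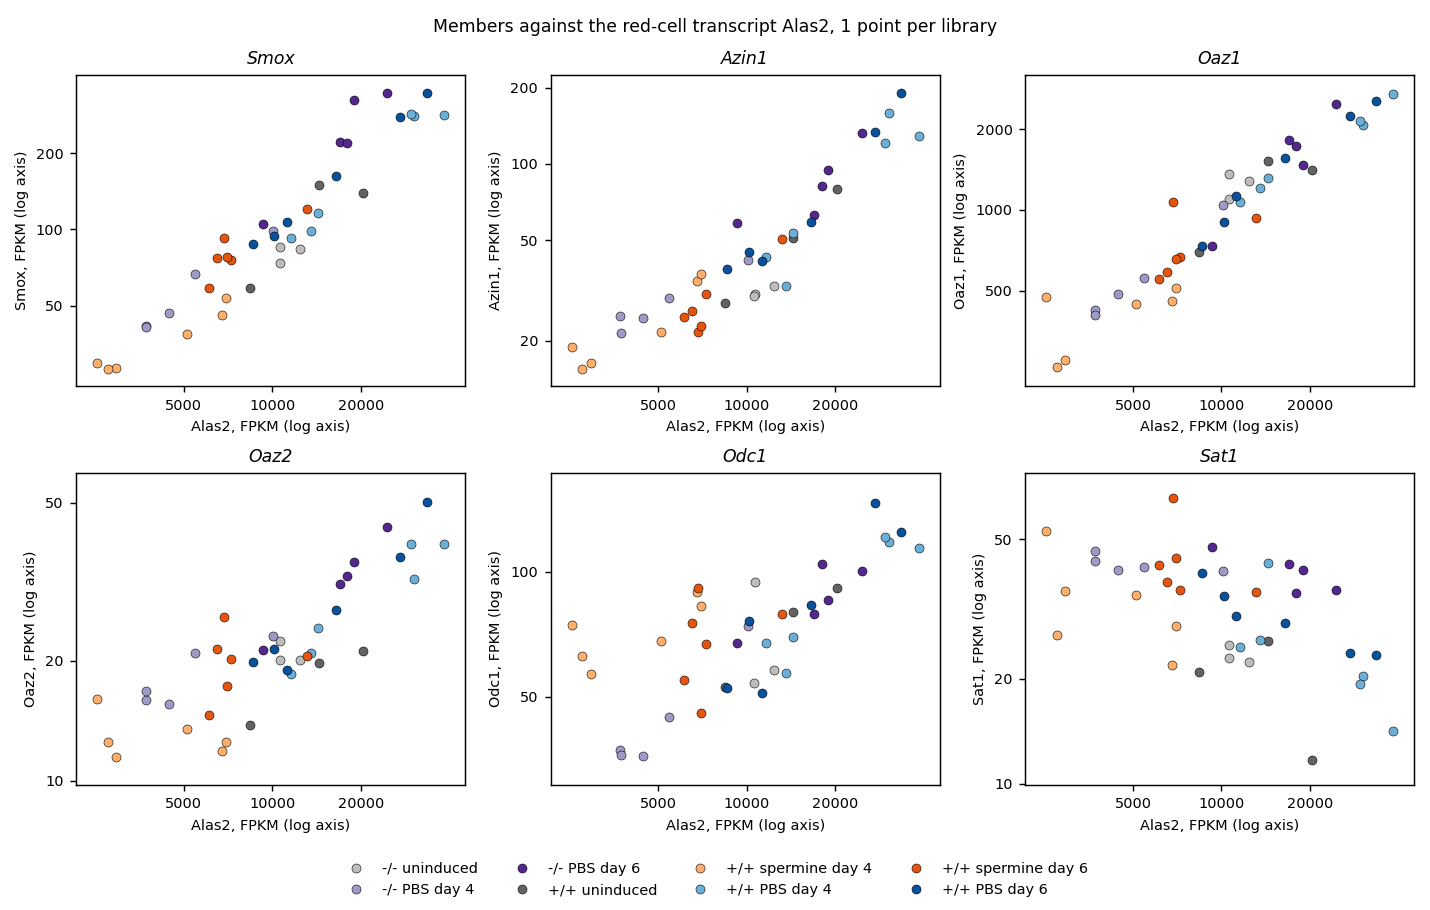
Level of 6 members (FPKM, log axis) against Alas2 (FPKM, log axis) in each of the 40 libraries, coloured by group. Smox, Azin1 and Oaz1 rise with Alas2, Odc1 in spermine day 4 mice stands high for its Alas2, and Sat1 slopes down. Levels at a given Alas2 differ between some groups. Smox per 1000 FPKM of Alas2 was 7.23 to 9.63 FPKM in Ifnar1+/+ PBS day 4 mice and 11.3 to 17.2 FPKM in labelled Ifnar1-/- day 6 mice.

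The remaining members ran the other way or followed weakly. Sat1 fell as Alas2 rose among mice of a group (Pearson r = -0.66, adjusted permutation p = 0.000386; Spearman rho = -0.74), and so did Sms (r = -0.52, adjusted permutation p = 0.00404; rho = -0.50) and Srm (r = -0.49, adjusted permutation p = 0.00846; rho = -0.52). Amd1 was at the threshold, with r = 0.38 (adjusted permutation p = 0.0496) and rho = 0.37 (adjusted permutation p = 0.0502), and r = 0.33 without the 2 libraries farthest in Alas2. Paox had r = -0.30 (adjusted permutation p = 0.0762). None of these 5 was past the threshold over the 33 libraries, at -0.46 for Sat1, -0.47 for Sms, -0.35 for Srm, 0.18 for Amd1 and -0.29 for Paox. On equal library sums without hemoglobin, over 40 libraries, Sat1 was at -0.75, Sms at -0.68, Srm at -0.65 and Paox at -0.51. These were past the threshold (adjusted permutation p up to 0.00384), and Amd1 at -0.097 was not (adjusted permutation p = 0.548).

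The hemoglobin share of fragments gave lower correlations over the 40 libraries for the same 5 members, at 0.72 for Oaz1, 0.50 for Smox, 0.49 for Odc1, 0.37 for Oaz2 and 0.34 for Azin1, with adjusted permutation p-values up to 0.0245. The Spearman values were 0.70 for Oaz1, 0.50 for Smox, 0.49 for Odc1, 0.37 for Oaz2 and 0.32 for Azin1, of which that of Azin1 was not past the threshold (adjusted permutation p = 0.0502). Over the 33 libraries the Pearson values were higher, at 0.86 for Oaz1, 0.72 for Smox, 0.66 for Odc1, 0.65 for Azin1 and 0.49 for Oaz2, and all 5 were past the threshold (adjusted permutation p up to 0.0454), with Azin1 past it by Spearman too (rho = 0.58, adjusted permutation p = 0.0151) and Oaz2 not (rho = 0.45, adjusted permutation p = 0.0671). On equal sums without hemoglobin Oaz1 and Smox stayed past it, at 0.79 for Oaz1 and 0.39 for Smox, and the others were not past it, at 0.25 for Odc1, 0.16 for Azin1 and -0.14 for Oaz2 (adjusted permutation p = 0.167 for Odc1, 0.357 for Azin1 and 0.41 for Oaz2). Over the 40 libraries Sat1 had r = 0.00 with the hemoglobin share (adjusted permutation p = 0.985). The mean log2 level of 10 neutrophil genes ran the other way, at 0.56 for Sat1 and 0.45 for Srm and at -0.60 for Azin1, -0.60 for Smox, -0.55 for Odc1, -0.54 for Oaz2 and -0.53 for Oaz1, with adjusted permutation p-values up to 0.0243. The Spearman values were 0.57 for Sat1, 0.44 for Srm, -0.67 for Azin1, -0.62 for Smox, -0.51 for Odc1, -0.54 for Oaz2 and -0.58 for Oaz1. Over the 33 libraries no member was past the threshold for the neutrophil genes, and Sat1 was at 0.43. The red-cell and neutrophil measures share each library's scaling.

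**Figure D3:**
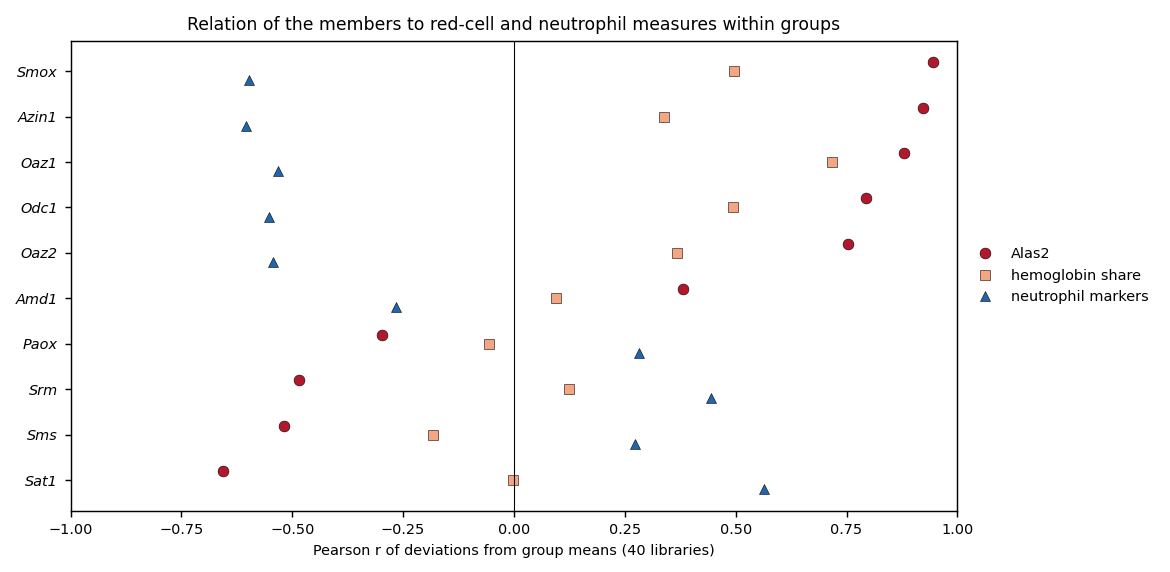
Pearson correlation, after removal of group means, of each member (rows) with log2 Alas2, hemoglobin share and mean log2 neutrophil markers over 40 libraries. For Alas2, Smox lies at 0.94 and Sat1 at -0.66, and the neutrophil markers run in the opposite direction.

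The 5 members that followed Alas2 also followed each other within groups, as a description over the same 40 libraries. Smox correlated with Oaz1 at 0.92 and with Azin1 at 0.91, and Odc1 with Smox at 0.84. Among 9786 named genes, those most like the members in log2 level over all 40 libraries, with group means left in, were Fbxo7 (0.98) and Carhsp1 (0.98) for Smox, Serinc3 (0.98) and Wdr26 (0.98) for Azin1, Slc25a39 (0.99) and Ftl1 (0.99) for Oaz1 and Pcmt1 (0.94) and Rhoj (0.91) for Odc1. They were Msrb1 (0.96) and Tyrobp (0.96) for Sat1, where Tyrobp encodes an adaptor of myeloid receptors. The likeness was lower for the others, with Plek (0.74) and Rab27b (0.73) for Amd1, Napsa (0.74) and Ppp1r14b (0.73) for Srm and Snx2 (0.68) and Mup-ps22 (0.66) for Sms.

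Spermine against PBS on day 4 asks whether pretreatment with a polyamine went with other levels of the pathway's own genes. Smox, Oaz1, Oaz2 and Azin1 fell in spermine mice, and no member rose. Of the 9 members tested, 4 were called lower at an adjusted p under 0.05 (limma, Benjamini-Hochberg over 11829 genes), against 6.48% of all genes called lower. The median change of the 9 was -0.28 on the log2(FPKM + 1) scale, against 0.01 over all genes.

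Smox, the oxidase that converts spermine to spermidine, had 28.2 to 53.4 FPKM (median 34.02) in the 6 spermine mice, against 92.03 to 284 FPKM (median 197) in the 6 PBS mice. The groups did not overlap, and the log2 change was -2.20 ± 0.34 (SE; limma adjusted p = 2.16e-05). Oaz1 had 258 to 510.4 FPKM (median 451) in spermine mice, against 1074 to 2712 FPKM (median 1689.6) in PBS mice. It too was lower in every spermine mouse than in any PBS mouse, at -2.08 ± 0.31 (limma adjusted p = 1.13e-05). Oaz2 had 11.5 to 16.04 FPKM (median 12.5) in spermine mice and 18.5 to 39.4 FPKM (median 28.2) in PBS mice. Again the groups did not overlap, at -1.06 ± 0.20 (limma adjusted p = 0.000248). Azin1, whose product counters the antizymes, had 15.5 to 36.7 FPKM (median 20.3) in spermine mice and 32.9 to 158 FPKM (median 86.8) in PBS mice. Its ranges overlapped, since spermine mice 1 and 3 exceeded the lowest PBS mouse, and its log2 change was -1.70 ± 0.36 (limma adjusted p = 0.00123).

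Odc1, the first enzyme of the pathway, was not called. It had 56.9 to 89.3 FPKM (median 71.4) in spermine mice and 57.2 to 122 FPKM (median 91.8) in PBS mice. All spermine mice but 1 lay inside the PBS range, and the log2 change was -0.28 ± 0.24 (95% interval -0.77 to 0.20; limma adjusted p = 0.619). Sat1, which acetylates spermine and spermidine, had 21.9 to 52.8 FPKM in spermine mice and 14.1 to 42.8 FPKM in PBS mice, at 0.45 ± 0.20 (limma adjusted p = 0.193). Sat1 was called higher without PBS mouse 5, the highest of its group, at 0.62. It turned to -0.41 ± 0.23 with Alas2 and -0.11 ± 0.22 with the neutrophil genes as covariate, and was at 0.09 ± 0.18 without the 7 low-mitochondrial libraries, called in none. Amd1, Srm and Sms had log2 changes of 0.00 ± 0.13, 0.14 ± 0.17 and 0.13 ± 0.11, with overlapping groups. Paox, untested, had 0.265 to 0.489 FPKM in spermine mice and 0.210 to 0.417 FPKM in PBS mice.

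Red-cell transcripts moved with these members. Of 11 red-cell genes, 10 were lower in spermine mice and none was higher (median log2 change -2.74). Their summed level was 3560 to 9123 FPKM in spermine mice against 17188 to 54830 FPKM in PBS mice, and none was at 0 in any library. Of 10 neutrophil genes, 9 were higher and none lower (median 1.02), with a summed level of 2788 to 5593 FPKM in spermine mice against 1032 to 4017 FPKM in PBS mice. Of 6 B cell genes 1 was lower, and of 6 natural killer genes 1 was higher. Alas2 ran over 2533 to 6982 FPKM in spermine mice and 11583 to 38407 FPKM in PBS mice, so a fit with log2 Alas2 as covariate compares the groups at Alas2 levels that they do not share. In that fit the log2 change was -0.02 ± 0.18 for Smox, -0.29 ± 0.23 for Oaz1, -0.07 ± 0.21 for Oaz2 and 0.57 ± 0.22 for Azin1, and none of these was called. Here and below, the share of all genes called is not given for fits with covariates or left-out libraries. Their counts of members called are thus not set against a background. With the hemoglobin share as covariate all 4 were called, at -1.65 ± 0.34 for Smox, -1.39 ± 0.25 for Oaz1, -0.83 ± 0.21 for Oaz2 and -1.30 ± 0.40 for Azin1. With the neutrophil genes as covariate no member was called, and Smox was at -1.15 ± 0.37. The mean log2 level of these genes was 6.70 to 6.91 in spermine mice and 5.29 to 6.72 in PBS mice. PBS mouse 5 alone reached the spermine range, so that fit compares the groups at neutrophil levels that they barely share.

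With Alas2 in the fit, Odc1 was the 1 member called, at 0.97 ± 0.23 (limma adjusted p = 0.0229), higher in spermine mice. Per 1000 FPKM of Alas2, Odc1 stood at 11.8 to 29.5 (median 16.3) FPKM in spermine mice, against 2.97 to 5.81 (median 4.17) FPKM in PBS mice. In labelled Ifnar1-/- mice on day 4, whose Alas2 of 3713 to 10088 FPKM does overlap that of the spermine mice, it stood at 7.36 to 10.02 (median 8.22) FPKM. Smox per 1000 FPKM of Alas2 stood at 6.78 to 11.7 (median 8.63) FPKM in spermine mice and 7.23 to 9.63 (median 8.01) FPKM in PBS mice, with overlap. Oaz2 on that scale stood at 1.75 to 6.33 (median 3.27) FPKM in spermine mice and 1.02 to 1.69 (median 1.44) FPKM in PBS mice, without overlap. Within groups Odc1 and Oaz2 moved by only 0.54 and 0.43 per doubling of Alas2, so both ratios rise where Alas2 is low. The following fits were chosen after the data were seen. With the mean of the other red-cell genes as covariate, the Odc1 change was 1.12 ± 0.22 and was called, as was Azin1 at 0.84 ± 0.16. It was 0.88 ± 0.23 with Alas2 and without the 7 low-mitochondrial libraries, and 0.77 ± 0.26 with Alas2 in a fit of these 2 groups, and was called in neither. Over 26 alternatives the limma adjusted p for Odc1 ranged over 0.000123 to 0.877, and 4 were past the threshold. These were the fits with Alas2 and with the other red-cell genes, and both equal-sum scalings, at 0.46 without hemoglobin in the sum and 0.97 with it, or -0.04 and 0.07 relative to the middle of all genes. With the hemoglobin share as covariate the change was 0.09 ± 0.24.

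**Figure D4:**
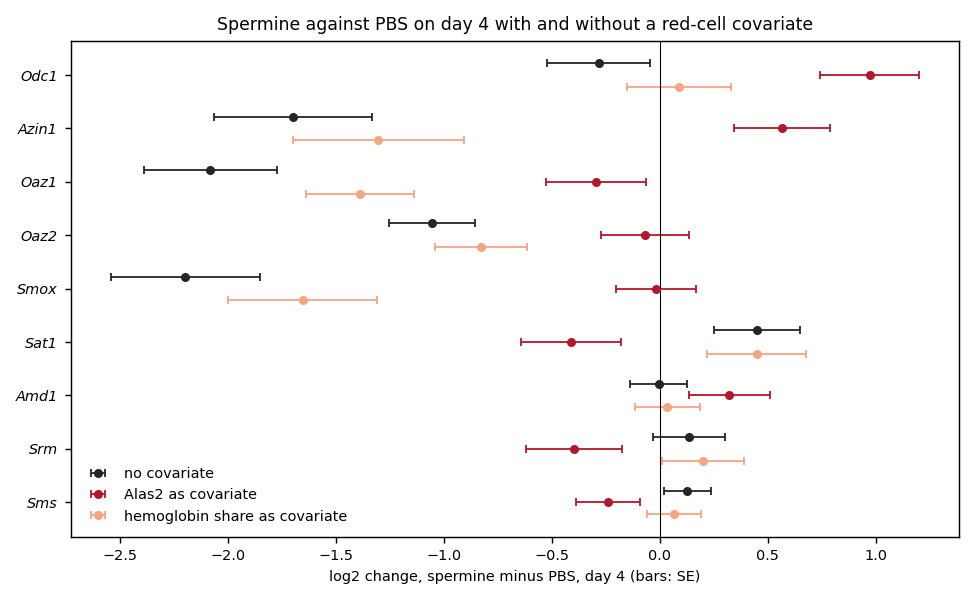
Log2 change of 9 members in spermine against PBS mice on day 4 (points, bars are SE) with no covariate, with log2 Alas2 and with the hemoglobin share as covariate. With Alas2 in the fit Smox and Oaz2 lie near 0 and Odc1 lies at 0.97.

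The scaling of the table bears on these directions. When each library was set to an equal sum that leaves out hemoglobin, the middle of all genes moved to 0.51, and the changes relative to it were -1.96 for Smox, -1.84 for Oaz1, -1.47 for Azin1, -0.85 for Oaz2 and -0.04 for Odc1. That scaling called 9 of 9 members and 71.2% of all genes. With hemoglobin in the sum the middle moved to 0.90, 7 of 9 members and 84.0% of all genes were called, and Oaz2 turned positive at 0.15, or -0.75 relative to it. Without the 7 low-mitochondrial libraries, of which 3 are PBS day 4 mice, Smox was at -1.46 ± 0.32, Oaz1 at -1.61 ± 0.32 and Oaz2 at -0.67 ± 0.17, all called. Azin1 was then not called, at -0.87 ± 0.28.

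On day 6, spermine against PBS called none of the 9 members, and 0.0423% of all genes. At an unadjusted p under 0.05, 5 members and 1934 genes passed. Smox had 58.7 to 120.4 FPKM (median 77.5) in spermine mice and 87.7 to 346 FPKM (median 134) in PBS mice, at -0.91 ± 0.34 (limma adjusted p = 0.168). Oaz1 had 551 to 1068 FPKM (median 659.7) in spermine mice and 733 to 2560.1 FPKM (median 1344) in PBS mice, at -0.93 ± 0.31 (limma adjusted p = 0.117). Azin1 had 21.7 to 50.6 FPKM (median 25.6) in spermine mice and 38.4 to 191 FPKM (median 51.7) in PBS mice, at -1.26 ± 0.36 (limma adjusted p = 0.0778). The groups overlapped for every member. Azin1 was called lower when PBS mouse 1, 3 or 5 or spermine mouse 3 was left out (-1.43 to -1.38), and Oaz1 without PBS mouse 5 (-1.11). The other log2 changes were -0.45 ± 0.20 for Oaz2, -0.29 ± 0.24 for Odc1, 0.51 ± 0.20 for Sat1, -0.20 ± 0.13 for Amd1, 0.21 ± 0.17 for Srm and -0.20 ± 0.11 for Sms. By voom on recovered reads 1 member and 113 genes were called. No red-cell gene was called, at a median of -1.09.

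The change of the spermine effect between the days called no member, and 0.0169% of all genes. Smox was at 1.28 ± 0.49 and Oaz1 at 1.15 ± 0.44 (day 6 effect minus day 4 effect, limma adjusted p = 0.584 for Smox and 0.584 for Oaz1). At an unadjusted p under 0.05, 4 members and 819 genes passed, and voom called 0 members and 6 genes.

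Labelled Ifnar1-/- against Ifnar1+/+ mice on day 4, both given PBS, moved more members than any other comparison. Odc1, Smox, Oaz1, Oaz2 and Azin1 fell and Sat1 rose in the labelled Ifnar1-/- mice. These were 5 of 9 members called lower against 9.26% of all genes, and 1 of 9 called higher against 9.23% of all genes.

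Odc1 had 74.3, 36.1, 37.2, 36.1 and 44.8 FPKM in the 5 labelled Ifnar1-/- mice, against 57.2 to 122 FPKM (median 91.8) in the 6 Ifnar1+/+ mice. Of the labelled Ifnar1-/- group, mouse 1 alone reached the Ifnar1+/+ range, and the log2 change was -0.98 ± 0.25 (limma adjusted p = 0.00509). Smox had 98.8, 46.6, 41.6, 41.1 and 66.4 FPKM in labelled Ifnar1-/- mice and 92.03 to 284 FPKM in Ifnar1+/+ mice, at -1.59 ± 0.36 (limma adjusted p = 0.00158). Again mouse 1 alone overlapped. Oaz1 had 1046, 485, 423, 407 and 555 FPKM in labelled Ifnar1-/- mice and 1074 to 2712 FPKM in Ifnar1+/+ mice, with no overlap, at -1.60 ± 0.32 (limma adjusted p = 0.000493). Azin1 had 41.6, 24.5, 25.04, 21.4 and 29.6 FPKM in labelled Ifnar1-/- mice and 32.9 to 158 FPKM in Ifnar1+/+ mice, at -1.42 ± 0.38 (limma adjusted p = 0.0077). Mouse 1 was the highest of its group for each of these genes.

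Oaz2 fell least of the 5, with 23.1, 15.6, 15.96, 16.8 and 20.9 FPKM in labelled Ifnar1-/- mice and 18.5 to 39.4 FPKM in Ifnar1+/+ mice, at -0.59 ± 0.21 (limma adjusted p = 0.0442). It lost its call without Ifnar1+/+ mouse 1, 3 or 4 or labelled Ifnar1-/- mouse 2, 3 or 4, at -0.56 to -0.49. Sat1 had 40.5, 40.8, 46.4, 43.5 and 41.8 FPKM in labelled Ifnar1-/- mice and 14.1 to 42.8 FPKM (median 22.5) in Ifnar1+/+ mice. Ifnar1+/+ mouse 5 reached the labelled Ifnar1-/- range and the other Ifnar1+/+ mice lay below it, at 0.85 ± 0.21 (limma adjusted p = 0.00337). Amd1, Srm and Sms had log2 changes of -0.13 ± 0.14, -0.06 ± 0.17 and 0.04 ± 0.12. Paox had 0.391 to 0.839 FPKM in labelled Ifnar1-/- mice and 0.210 to 0.417 FPKM in Ifnar1+/+ mice.

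Beside these, 10 of 11 red-cell genes were lower and none higher (median log2 change -1.91), with a summed level of 5339 to 14530 FPKM in labelled Ifnar1-/- mice and 17188 to 54830 FPKM in Ifnar1+/+ mice. All 10 neutrophil genes were higher (median 1.97), at a summed 6371 to 7991 FPKM in labelled Ifnar1-/- mice and 1032 to 4017 FPKM in Ifnar1+/+ mice. Of 5 platelet genes tested, 2 were lower. Of 6 B cell genes 3 were lower, of 6 T cell genes 2 were higher and 1 lower, and of 6 natural killer genes 2 were higher. With Alas2 as covariate no member was called, at 0.31 ± 0.18 for Smox, -0.04 ± 0.22 for Oaz1, 0.12 ± 0.22 for Odc1, 0.56 ± 0.21 for Azin1, 0.27 ± 0.20 for Oaz2 and 0.10 ± 0.22 for Sat1. Alas2 ran over 3713 to 10088 FPKM in labelled Ifnar1-/- mice and 11583 to 38407 FPKM in Ifnar1+/+ mice. Here too that fit compares the groups at Alas2 levels that they do not share. With the hemoglobin share as covariate Oaz1 at -0.79 ± 0.27 and Sat1 at 0.85 ± 0.25 were called. Without the 7 low-mitochondrial libraries Oaz1 was the 1 member called, at -1.13 ± 0.33, and Odc1 was at -0.55 ± 0.23, Smox at -0.86 ± 0.33, Azin1 at -0.59 ± 0.29, Oaz2 at -0.20 ± 0.17 and Sat1 at 0.49 ± 0.19. On equal sums with hemoglobin, where the middle of all genes moved to 0.89, Odc1 turned to 0.27 and Oaz2 to 0.63, or -0.62 and -0.26 relative to it.

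Odc1 was called lower in labelled Ifnar1-/- mice and not in spermine mice against the same 6 PBS mice. The difference between those changes was not tested. The mean Odc1 level was 45.7 ± 16.4 FPKM in labelled Ifnar1-/- mice (SD, n = 5), 72.4 ± 12.3 FPKM in spermine mice (SD, n = 6) and 91.3 ± 29.5 FPKM in the PBS mice (SD, n = 6).

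Labelled Ifnar1-/- against Ifnar1+/+ called none of the 9 members in uninduced mice, against 0.406% of all genes, and none on day 6, against 3.20% of all genes. At an unadjusted p under 0.05 there were 0 members and 1080 genes in uninduced mice, and 2 members and 1835 genes on day 6. Voom called 0 members and 30 genes in uninduced mice, and 0 members and 272 genes on day 6. In uninduced mice Azin1 had 30.6, 30.1 and 32.99 FPKM in labelled Ifnar1-/- mice and 28.1, 51.01 and 79.4 FPKM in Ifnar1+/+ mice (-0.62 ± 0.52, limma adjusted p = 0.682). On day 6 Smox had 220.4, 105, 324, 219 and 346 FPKM in labelled Ifnar1-/- mice and 87.7 to 346 FPKM in Ifnar1+/+ mice (0.53 ± 0.36, limma adjusted p = 0.503). The groups overlapped for both genes. Without the 7 low-mitochondrial libraries Smox at 1.03 ± 0.31 and Oaz2 at 0.55 ± 0.16 were called higher on day 6.

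The difference of pristane effects between the genotypes, labelled Ifnar1-/- minus Ifnar1+/+, called no member on day 4 (0.254% of all genes) or day 6 (0.0254% of all genes). On day 4 Oaz1 was at -1.72 ± 0.54 (limma adjusted p = 0.184), and 2 members and 1142 genes had an unadjusted p under 0.05, against 0 members and 616 genes on day 6. Voom called no member on either day, with 0 genes on day 4 and 1 on day 6.

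Pristane against uninduced Ifnar1+/+ mice called none of the 9 members on day 4, against 2.10% of all genes, and none on day 6, against 8.17% of all genes. At an unadjusted p under 0.05 there were 1 member and 1683 genes on day 4, and 2 members and 2699 genes on day 6, and voom called no member, with 217 genes on day 4 and 834 on day 6. Sat1 had 20.8, 25.6 and 11.7 FPKM in uninduced mice, 14.1 to 42.8 FPKM on day 4 and 23.4 to 40.03 FPKM on day 6. Its groups overlapped, and its log2 change on day 6 was 0.65 ± 0.24 (limma adjusted p = 0.096). Sat1 was called higher on day 6 without uninduced mouse 2, at 0.88, and with Alas2 as covariate, at 0.73 ± 0.19. With the neutrophil genes as covariate it turned to -0.78 ± 0.42, not called. The mean log2 level of these genes was 4.08 to 4.49 in uninduced mice and 5.59 to 7.21 on day 6. That fit thus compares groups at neutrophil levels that they do not share. Oaz2 was at 0.61 ± 0.24 on day 4 (limma adjusted p = 0.213) and 0.57 ± 0.24 on day 6 (limma adjusted p = 0.148). Neutrophil genes were called higher in these mice, 8 of 10 on day 4 and 10 of 10 on day 6, as were 2 of 5 inflammatory monocyte genes on day 4 and 4 on day 6, and no red-cell gene was called. Natural killer genes were called lower, 2 of 6 on each day, as were 2 of 6 B cell genes on day 6.

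In labelled Ifnar1-/- mice Sat1 rose after pristane. On day 4 it was the 1 member of 9 called higher, against 6.64% of all genes, and none was called lower. Sat1 had 22.9, 24.95 and 22.3 FPKM in uninduced mice, 40.5, 40.8, 46.4, 43.5 and 41.8 FPKM on day 4 and 42.5, 47.7, 40.9, 35.2 and 35.8 FPKM on day 6. Every pristane mouse was above every uninduced mouse, at 0.84 ± 0.25 on day 4 (limma adjusted p = 0.0294) and 0.76 ± 0.25 on day 6 (limma adjusted p = 0.0441). The day 4 call was lost without any 1 of the uninduced mice or day 4 mouse 3 or 4, at 0.81 to 0.88. All 10 neutrophil genes were higher on both days (median 2.89 on day 4 and 2.78 on day 6), at a summed 839 to 934 FPKM in uninduced mice, 6371 to 7991 FPKM on day 4 and 5432 to 8782 FPKM on day 6. With these genes as covariate Sat1 was at -0.84 ± 0.49 on day 4 and -0.84 ± 0.47 on day 6, neither called. The mean log2 level of the neutrophil genes was 4.65 to 4.72 in uninduced mice, 7.37 to 7.78 on day 4 and 7.17 to 7.73 on day 6. That fit thus compares groups at neutrophil levels that they do not share. Oaz1 on day 4 was at -1.19 ± 0.39 (limma adjusted p = 0.0521), and was called lower without day 4 mouse 1, at -1.42.

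On day 6 of the same comparison Smox and Azin1 also rose and Sms fell. With Sat1, 3 of 9 members were called higher against 8.57% of all genes, and 1 of 9 lower against 3.19% of all genes. Smox had 220.4, 105, 324, 219 and 346 FPKM on day 6 and 85.4, 73.7 and 83.7 FPKM in uninduced mice, without overlap (1.46 ± 0.43, limma adjusted p = 0.0234). Azin1 had 63.02, 58.3, 94.7, 81.5 and 133 FPKM on day 6 and 30.6, 30.1 and 32.99 FPKM in uninduced mice, also without overlap (1.37 ± 0.46, limma adjusted p = 0.0466). Sms, the enzyme that makes spermine, had 1.15, 1.63, 1.72, 2.26 and 1.43 FPKM on day 6 and 2.89, 2.17 and 2.49 FPKM in uninduced mice (-0.42 ± 0.14, limma adjusted p = 0.0421), on 42 to 114 reads in day 6 mice and 130 to 163 reads in uninduced mice. No member was called when uninduced mouse 1, 2 or 3, or day 6 mouse 3 or 5, was left out. Sat1 and Sms also lost their calls without day 6 mouse 1 or 2, and Azin1 without day 6 mouse 4. Of the 11 red-cell genes, 6 were higher and none lower (median 1.5999). Higher too were 4 of 5 platelet genes tested (median 0.98) and, on both days, 4 of 5 inflammatory monocyte genes (median 1.58 on day 4 and 1.5985 on day 6). Lower on day 6 were 3 of 6 B cell genes, 1 of 6 T cell genes and 1 of 6 natural killer genes. Lower on day 4 were 2 of 6 T cell genes and 2 of 6 natural killer genes. The part of these cells in the members' changes was not tested. With Alas2 as covariate Sat1 at 0.97 ± 0.20, Smox at 0.92 ± 0.16 and Azin1 at 0.80 ± 0.19 were called, and Sms at -0.33 ± 0.13 was not.

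Day 6 against day 4 moved the pathway in labelled Ifnar1-/- mice. Odc1, Smox, Oaz1, Oaz2 and Azin1 were higher on day 6, 5 of 9 members against 5.75% of all genes called higher, and none was lower. Odc1 had 79.4, 67.6, 85.7, 105 and 100.3 FPKM on day 6, against 74.3, 36.1, 37.2, 36.1 and 44.8 FPKM on day 4 (0.96 ± 0.26, limma adjusted p = 0.0181). Day 4 mouse 1 alone reached the day 6 range. The log2 change was 2.00 ± 0.38 for Smox (limma adjusted p = 0.00147), 1.49 ± 0.34 for Oaz1 (limma adjusted p = 0.00446), 1.54 ± 0.40 for Azin1 (limma adjusted p = 0.0128) and 0.78 ± 0.22 for Oaz2 (limma adjusted p = 0.0219). For Smox and Azin1 every day 6 mouse was above every day 4 mouse. All 11 red-cell genes (median 2.11) and 5 of 5 platelet genes tested (median 1.10) were higher on day 6, and no neutrophil gene was called. With Alas2 as covariate no member was called, at 0.38 ± 0.17 for Smox, -0.14 ± 0.20 for Azin1 and 0.03 ± 0.21 for Odc1, and none was called with the hemoglobin share, at 1.29 ± 0.40 for Smox. Alas2 ran over 9265 to 24597 FPKM on day 6 and 3713 to 10088 FPKM on day 4. For Alas2 too, day 4 mouse 1 alone reached the day 6 range, so the Alas2 fit compares levels that the groups barely share. On equal sums with hemoglobin, where the middle of all genes moved to -0.97, Odc1 turned to -0.35 and Oaz2 to -0.51, or 0.61 and 0.46 relative to it. Leaving out day 4 mouse 2, 3 or 4 left 3 members called, and leaving out day 6 mouse 5 left 2. Odc1 and Oaz2 lost their calls in each of these, and Azin1 without day 6 mouse 5. Odc1 also lost its call without day 6 mouse 4, and Oaz2 without day 6 mouse 3.

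In Ifnar1+/+ mice, day 6 against day 4 called none of the 9 members after PBS (0.473% of all genes) and none after spermine (0.617% of all genes). At an unadjusted p under 0.05 there were 0 members and 1827 genes after PBS, and 3 members and 1241 genes after spermine, and voom called 0 members and 31 genes after PBS and 1 member and 200 genes after spermine. After spermine, Smox had 58.7 to 120.4 FPKM on day 6 and 28.2 to 53.4 FPKM on day 4, without overlap (1.15 ± 0.34, limma adjusted p = 0.121). Oaz1 had 551 to 1068 FPKM on day 6 and 258 to 510.4 FPKM on day 4, also without overlap (0.88 ± 0.31, limma adjusted p = 0.231). Odc1 had 45.8 to 91.3 FPKM on day 6 and 56.9 to 89.3 FPKM on day 4 (-0.09 ± 0.24, limma adjusted p = 0.904). With Alas2 as covariate Odc1 at -0.56 ± 0.16 and Azin1 at -0.53 ± 0.16 were called lower on day 6 and Sat1 at 0.72 ± 0.17 higher. Odc1 per 1000 FPKM of Alas2 was 6.03 to 13.4 FPKM on day 6 and 11.8 to 29.5 FPKM on day 4, a ratio that rises where Alas2 is low.

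**Figure D5:**
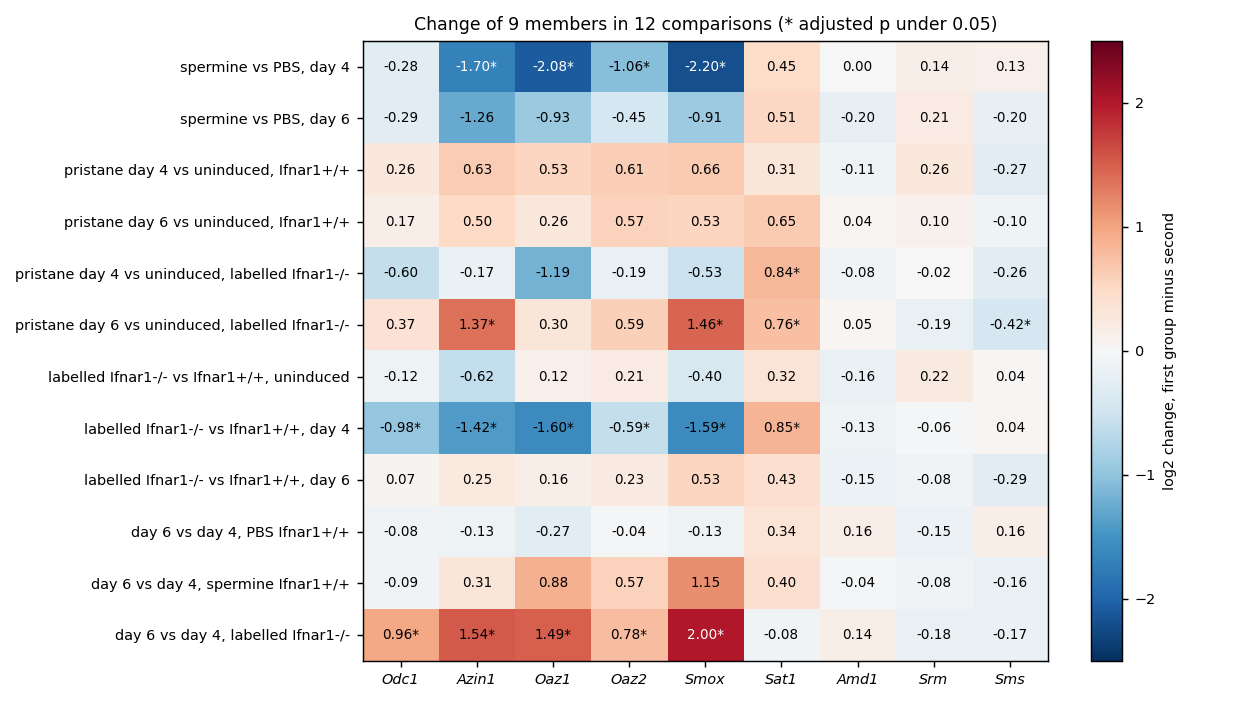
Log2(FPKM + 1) change of 9 members in 12 comparisons (first group minus second), coloured by direction and size; a star marks a limma adjusted p under 0.05. Smox, Oaz1, Oaz2 and Azin1 carry most of the stars, and Amd1 and Srm carry none.

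The wider pathway was followed with 39 further genes of arginine and ornithine supply, methyl donor supply, acetylation, transport and hypusine synthesis. All 39 were in the table and 23 passed the filter. In spermine against PBS mice on day 4, 1 of the 23 was called higher, against 2.65% of all genes, and 2 lower, against 6.48% of all genes, so these counts are near the background. Arg2, the mitochondrial arginase that makes ornithine, averaged 7.41 ± 1.4962 FPKM in spermine mice against 3.53 ± 1.64 FPKM in PBS mice (SD, n = 6 each), at 0.94 ± 0.18 (limma adjusted p = 0.000252). Mat2b, a subunit of methionine adenosyltransferase, averaged 8.77 ± 1.77 FPKM in spermine mice against 32.6 ± 16.89 FPKM in PBS mice, at -1.63 ± 0.29 (limma adjusted p = 0.000106). Slc3a2, the heavy chain of amino acid transporters, averaged 7.48 ± 1.11 FPKM in spermine mice against 19.9 ± 5.86 FPKM in PBS mice, at -1.27 ± 0.21 (limma adjusted p = 4.26e-05). On day 6 none of the 23 was called.

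The other comparisons are given as log2 changes with their SE, each at a limma adjusted p under 0.05. Labelled Ifnar1-/- against Ifnar1+/+ mice on day 4 called Arg2 (1.27 ± 0.19) and Atp13a2 (0.30 ± 0.09), a lysosomal polyamine exporter, higher, and Mat2b (-1.17 ± 0.30) and Slc3a2 (-0.73 ± 0.22) lower, 2 of 23 in each direction against 9.23% of all genes higher and 9.26% lower. On day 6 Slc3a2 was higher (0.85 ± 0.22), 1 of 23 against 1.52% of all genes, and in uninduced mice none was called. Pristane in labelled Ifnar1-/- mice called Arg2 (1.46 ± 0.22) and Atp13a2 (0.56 ± 0.11) higher on day 4 and Mat2a (-0.73 ± 0.19), the catalytic subunit of methionine adenosyltransferase, lower, against 6.64% of all genes higher and 1.49% lower. On day 6 it called Arg2 (1.41 ± 0.22), Slc3a2 (1.15 ± 0.26) and Atp13a2 (0.40 ± 0.11) higher and Mat2a (-0.67 ± 0.19) lower, against 8.57% of all genes higher and 3.19% lower. In Ifnar1+/+ mice pristane called none on day 4, and on day 6 Arg2 (1.34 ± 0.22) and Asl (0.45 ± 0.14), the argininosuccinate lyase, higher, against 5.59% of all genes. Day 6 against day 4 called Mat2b (1.47 ± 0.31) and Slc3a2 (1.44 ± 0.23) higher in labelled Ifnar1-/- mice, against 5.75% of all genes, and none in Ifnar1+/+ mice after either pretreatment. In none of these comparisons was the list set against other genes by a test, and the part of neutrophils and red cells in these changes was not tested.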

How the data were processed

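Gene levels were taken as FPKM values that the authors deposited in 1 table of 54532 genes and 40 libraries. Per the submitters' processing notes, the tools named are DESeq2 1.20.0, featureCounts 1.5.0-p3, HISAT2 2.0.5, fastp and CASAVA 1.8, and the builds named are GRCm38 and mm10. Steps and settings beyond these names are not given in the sources used here. FPKM were used as deposited. Whole reads could be recovered from 100.0% of the values above 0 (tolerance 0.001), and library depth is counted from them. The table's scaling is not an equal sum per library, so equal sums were an alternative.

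Levels were tested as log2(FPKM + 1) with limma 3.58.1 (R 4.3.3), trend on, in 1 fit of 8 group means over the 11829 genes with at least 1 FPKM in at least 3 libraries. There were 12 pairwise contrasts and 3 differences of contrasts, and Benjamini-Hochberg adjustment was made over all genes within each. A gene was called at an adjusted p under 0.05. A fold on this scale understates the change of low genes. Labels call the samples biological replicates. The script was tested on simulated data. Relations within groups used deviations from group means and 100000 permutations within groups (Python 3.11.15), two-sided. Voom on the recovered reads called 1092 genes for spermine against PBS on day 4, against 1080 by the test above.

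All 10 members are named. Of the 39 further pathway genes, those called are named, at most 4 per comparison. For each tested member, the 2 genes of highest correlation are named, except for Oaz2, where this result is not reported here. Of the 12 red-cell genes listed, 11 were in the table and Ahsp was not analysed here. Members and lists were chosen with earlier results of these data known. Alternatives were another pseudocount, no filter, equal library sums, fits of the groups compared, voom, covariates, a replicate block and left-out libraries.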

Additional observations from a re-analysis of the deposited data

Results flagged for a closer look

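In groups of 4 to 10 mice, 6 of 60 group values held a library far from the others by Dixon's test. Chance gives about 1 in 20. In labelled Ifnar1-/- PBS day 4 mice, mouse 1 had 74.3 FPKM of Odc1, against 36.1 to 44.8 FPKM in the others, and 1046 FPKM of Oaz1, against 407 to 555 FPKM in the others. The same mouse had 10088 FPKM of Alas2, the highest of its group. In spermine day 4 mice, mouse 2 had 7.14 FPKM of Srm, against 3.66 to 4.71 FPKM in the others. In spermine day 6 mice, mouse 2 had 8.03 FPKM of Srm, against 3.48 to 4.55 FPKM in the others, and 65.6 FPKM of Sat1, against 35.3 to 44.4 FPKM in the others. This library has a mitochondrial share of 1.12%. Mouse 3 of that group had 50.6 FPKM of Azin1, against 21.7 to 30.5 FPKM in the others, and 13138 FPKM of Alas2, the highest of its group.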

How the results depend on the processing

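The cause of each change below was not tested. A turned sign is listed where the change was called before or after it. The share of all genes called is not given for fits with covariates, a block, no filter, the groups compared alone or left-out libraries. Their counts of members called are thus not set against a background. Equal library sums without hemoglobin gave 9 members called for spermine against PBS on day 4, 2 for pristane day 6 in labelled Ifnar1-/- mice and 1 for day 6 against day 4 after spermine. Of all genes, 71.2%, 19.0% and 2.87% were called there in that order, with the middle of all genes at 0.51, -0.35 and -0.23. The middle moved to 0.43 between genotypes on day 4 and -0.51 for day 6 against day 4 in labelled Ifnar1-/- mice, and the turned signs below are not relative to it. Signs turned for spermine against PBS on day 4 to 0.46 for Odc1 and 0.66 for Amd1. Signs turned between genotypes on day 4 to 0.45 for Amd1 and 0.054 for Oaz2. Signs turned for day 6 against day 4 in labelled Ifnar1-/- mice to -0.49 for Amd1. Correlations turned to -0.097 for Amd1 with Alas2, -0.40 for Amd1 with the hemoglobin share, -0.14 for Oaz2 with the hemoglobin share and 0.52 for Amd1 with the neutrophil genes. Pearson correlations of Oaz2 with Alas2 and with the neutrophil genes, and of Odc1 and Azin1 with the hemoglobin share, were no longer past the threshold. Paox with Alas2, Sms and Paox with the neutrophil genes, and Sat1, Sms and Paox with the hemoglobin share came past it. Equal library sums with hemoglobin gave 7 members called for spermine against PBS on day 4, 2 for spermine against PBS on day 6, 4 for pristane day 4 in labelled Ifnar1-/- mice, 1 for pristane day 6 in labelled Ifnar1-/- mice and 2 for the day 4 difference of pristane effects. Of all genes, 84.0%, 35.2%, 45.7%, 1.67% and 28.0% were called there in that order, with the middle of all genes at 0.90, 0.53, 0.71, -0.21 and 0.94. The middle moved to 0.89 between genotypes on day 4 and -0.97 for day 6 against day 4 in labelled Ifnar1-/- mice, and the turned signs below are not relative to it. Signs turned for spermine against PBS on day 4 to 0.97 for Odc1, 1.13 for Amd1 and 0.15 for Oaz2. Signs turned for pristane day 4 in labelled Ifnar1-/- mice to 0.83 for Amd1, 0.78 for Oaz2 and 0.81 for Azin1. Signs turned between genotypes on day 4 to 0.27 for Odc1, 1.00 for Amd1, 0.97 for Srm and 0.63 for Oaz2. Signs turned for day 6 against day 4 in labelled Ifnar1-/- mice to -0.35 for Odc1, -1.04 for Amd1 and -0.51 for Oaz2. Alas2 as covariate gave 1 member called for spermine against PBS on day 4, 1 for pristane day 6 in Ifnar1+/+ mice, 3 for pristane day 4 in labelled Ifnar1-/- mice, 0 between genotypes on day 4, 1 between genotypes on day 6, 3 for day 6 against day 4 after spermine and 0 for day 6 against day 4 in labelled Ifnar1-/- mice. Signs turned for spermine against PBS on day 4 to 0.97 for Odc1 and 0.57 for Azin1. Signs turned for pristane day 4 in labelled Ifnar1-/- mice to 0.53 for Smox and 0.94 for Azin1. Alas2 ran over 10577 to 12382 FPKM in those uninduced mice and 3713 to 10088 FPKM in those day 4 mice. These groups are thus compared at Alas2 levels that they do not share. Signs turned between genotypes on day 4 to 0.12 for Odc1, 0.31 for Smox, 0.27 for Oaz2 and 0.56 for Azin1. Signs turned for day 6 against day 4 after spermine to -0.53 for Azin1. Signs turned for day 6 against day 4 in labelled Ifnar1-/- mice to -0.14 for Azin1. Neutrophil genes as covariate gave 0 members called for spermine against PBS on day 4, 5 for pristane day 4 in Ifnar1+/+ mice, 5 for pristane day 6 in Ifnar1+/+ mice, 2 for pristane day 4 in labelled Ifnar1-/- mice, 0 between genotypes on day 4, 1 between genotypes on day 6 and 3 for day 6 against day 4 after spermine. The groups share no range of neutrophil levels for pristane against uninduced mice or between genotypes on day 4. For spermine against PBS on day 4, PBS mouse 5 alone reached the range of the spermine mice. Signs turned for pristane day 4 in labelled Ifnar1-/- mice to -0.84 for Sat1, 2.59 for Smox and 3.20 for Azin1. Signs turned for pristane day 6 in labelled Ifnar1-/- mice to -0.84 for Sat1. Signs turned between genotypes on day 4 to 0.24 for Odc1, -0.17 for Sat1, 0.32 for Smox, 0.40 for Oaz2 and 0.64 for Azin1. Alas2 as covariate without the 7 low-mitochondrial libraries (chosen after seeing the data) gave 0 members called for spermine against PBS on day 4. Signs turned for spermine against PBS on day 4 to 0.34 for Azin1. Alas2 as covariate in a fit of the groups compared (chosen after seeing the data) gave 0 members called for spermine against PBS on day 4. Signs turned for spermine against PBS on day 4 to 0.57 for Azin1. The other red-cell genes as covariate (chosen after seeing the data) gave 2 members called for spermine against PBS on day 4. Signs turned for spermine against PBS on day 4 to 1.12 for Odc1, 0.15 for Smox, 0.14 for Oaz2 and 0.84 for Azin1. Voom on recovered reads gave 1 member called for spermine against PBS on day 6 and 1 for day 6 against day 4 after spermine. No filter gave 0 members called for pristane day 4 in labelled Ifnar1-/- mice and 1 for pristane day 6 in labelled Ifnar1-/- mice. The hemoglobin share as covariate gave 0 members called for pristane day 4 in labelled Ifnar1-/- mice, 2 between genotypes on day 4 and 0 for day 6 against day 4 in labelled Ifnar1-/- mice. Leaving out the 7 low-mitochondrial libraries gave 2 members called for pristane day 4 in labelled Ifnar1-/- mice, 1 between genotypes on day 4, 2 between genotypes on day 6 and 1 for day 6 against day 4 after spermine. It left 5 members related to Alas2 and 0 to the neutrophil genes, against 9 and 7. Fitting the groups compared alone gave 2 members called for pristane day 4 in labelled Ifnar1-/- mice and 2 for day 6 against day 4 after spermine. The replicate block gave 2 members called for pristane day 6 in labelled Ifnar1-/- mice. Leaving out 1 library turned the sign of 31 of 135 changes, none of them called with or without that library (lowest limma adjusted p = 0.711 with it and 0.794 without it). The members called ranged over 4 to 5 for spermine against PBS on day 4, 0 to 2 on day 6, 0 to 1 for pristane day 6 in Ifnar1+/+ mice, 0 to 2 and 0 to 3 for pristane days 4 and 6 in labelled Ifnar1-/- mice, 5 to 6 between genotypes on day 4 and 2 to 5 for day 6 against day 4 in labelled Ifnar1-/- mice, and were 0 in the other comparisons. With the pseudocount of 0.1, 163 results kept their direction and side of the threshold, 1 was weaker and 1 moved. Replicate numbers are shared between groups. In none of the 12 pairwise comparisons did every same-numbered pair of mice deviate together at a correlation above 0.1 (54 pairs, -0.36 to 0.69, median 0.027, 18 above 0.1), and the numbers were not taken as a pairing. The nearest was day 6 against day 4 after spermine, with 5 of 6 pairs above 0.1 (0.050 to 0.69), where the replicate block called 0 members, as did the fit without it. Depth limits Paox, Srm and Sms most, which rest on the fewest reads.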
